A study of Mus musculus with 12 samples.

Results

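The 8 genes described here, Lrp2, Cubn, Amn, Dab2, Clcn5, Ocrl, Lrpap1 and Ctns, encode proteins of the endocytic and lysosomal apparatus by which the proximal tubule of the kidney takes filtered protein back from the urine. They were chosen by name, with earlier results of these data known. Each was read from the probe set that the platform annotation gives to it alone, the brightest one where a gene had several. All 8 were found among the 19934 genes measured. Expression was measured in whole kidneys of 12 female C57BL/6 mice, each on an array of its own, and every group had been fed a high protein diet for 2 months. The 4 mutants, Mut-/-, carried no intact copy of Mut, the gene of methylmalonyl-CoA mutase (current symbol Mmut), and also carried the transgene TgINS-Alb-Mut, which is known to drive the enzyme from an albumin promoter, active in the liver. They were set against 4 heterozygotes, Mut+/-, and 4 wild-type mice, Mut+/+, whose genotype labels name no transgene, so an effect of the transgene and an effect of the missing enzyme cannot be told apart. The ages of the mice are not given in the labels used here. Loss of the enzyme causes methylmalonic acidemia with kidney disease, and the question of the comparison was which kidney transcripts differ between the genotypes.

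Cells of the proximal tubule carry megalin (Lrp2) and cubilin (Cubn) on their brush border, large receptors that bind albumin, vitamin carriers and many small filtered proteins. Receptor and ligand enter through clathrin-coated pits, part in acidified endosomes, and the ligand is broken down in lysosomes while the receptor returns to the surface. Inherited loss of several of these genes in humans gives low-molecular-weight proteinuria, and megalin and cubilin also retrieve the carriers of cobalamin, the vitamin from which the cofactor of methylmalonyl-CoA mutase is made.

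Values are log2 signals after RMA, the authors' normalisation, so a difference of 1 is a doubling, and a gene is called where limma gave a Benjamini-Hochberg adjusted p under 0.05 over all 19934 genes. Array medians lay between 7.17 and 7.23, and correlations between arrays over all probe sets ranged from 0.982 to 0.995. Over the 19934 genes, Mut-/- replicate 3 had the lowest median correlation with the other arrays, 0.987, against 0.991 to 0.996 for the others. Its values are therefore pointed out below. Mmut lay between 8.21 and 8.47 in Mut-/- kidneys, between 9.87 and 9.97 in Mut+/- kidneys and between 10.47 and 10.60 in Mut+/+ kidneys, with no overlap of the groups, although whether its probes also read the transgene was not determined. The 13 measured markers common to the whole proximal tubule each averaged 10.98 or more, above all array medians. In whole tissue, fewer proximal tubule cells and less RNA per cell cannot be told apart.

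Between Mut-/- and Mut+/+ kidneys 5 of the 8 genes fell and none rose. They were Ctns, Lrpap1, Cubn, Dab2 and Clcn5, between 1.19-fold and 1.32-fold lower in mutants. Lrp2 and Ocrl were lower by fold changes that did not pass the test, and Amn was 1.07-fold higher, also without passing it. Of all genes, 9.66% were called in this comparison, 6.69% lower and 2.96% higher. The median log2 fold change of the 8 genes was -0.28, beside 0.004 over all genes. All the changes are small on the log2 scale, yet in the 5 called genes every mutant array lay below every wild-type array. Such a gap was found for 9.4% of all genes on the lower side and for 5.35% on the higher side.

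**Figure D1:**
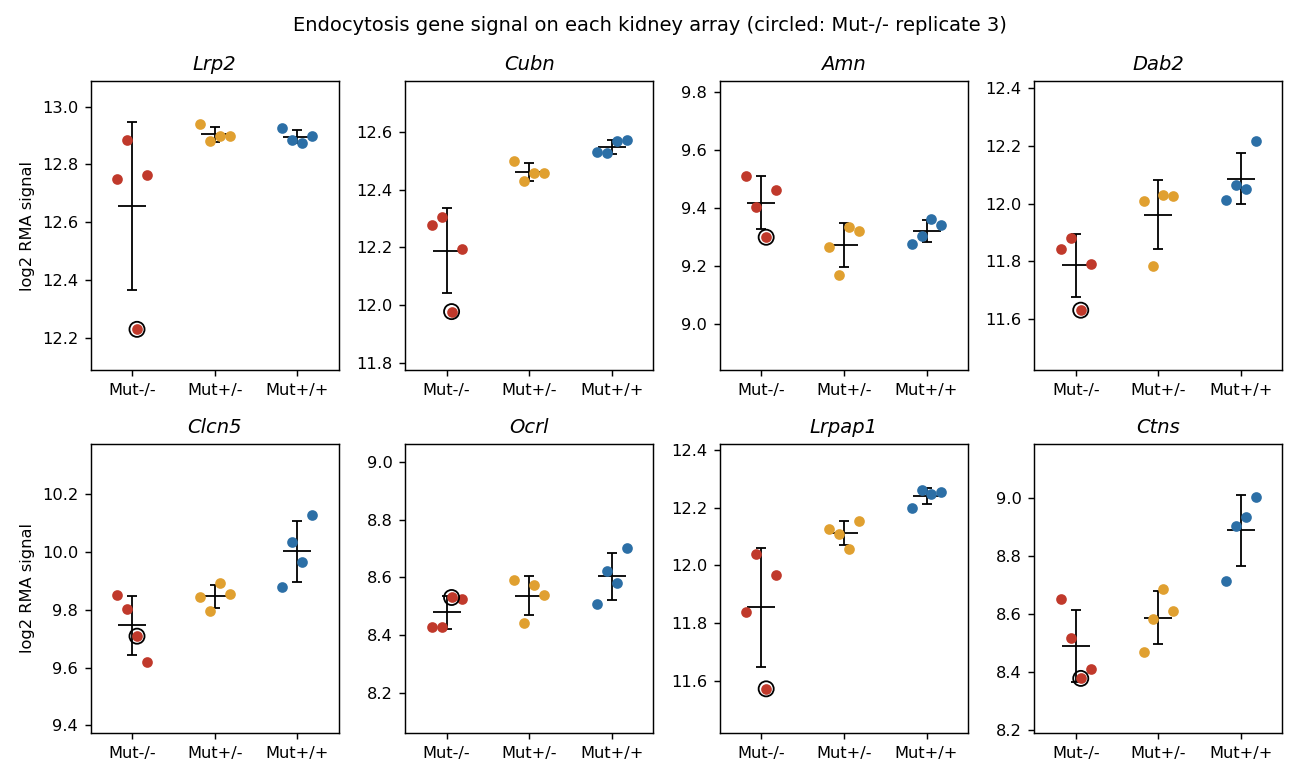
Log2 RMA signal of the 8 endocytosis genes (y axis, each panel spanning 1 log2 unit) on the 4 arrays of each genotype (x axis). Points are arrays, horizontal bars with whiskers are group means ± SD, and the circled point is Mut-/- replicate 3, which is the lowest mutant for 6 of the 8 genes.

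Among the receptors, megalin showed the widest scatter in Mut-/- kidneys. Lrp2 was at 12.75, 12.88, 12.23 and 12.76 in Mut-/- kidneys (replicates 1 to 4), against 12.94, 12.88, 12.90 and 12.90 in Mut+/- kidneys and 12.93, 12.88, 12.87 and 12.90 in Mut+/+ kidneys. Of the mutants, replicate 3 was far below the rest, and replicate 2 lay within the wild-type range. The mean of 12.66 ± 0.29 in Mut-/- kidneys (SD, n = 4) against 12.90 ± 0.02 in Mut+/+ kidneys (SD, n = 4) gave a log2 fold change of -0.24 (SE 0.10, adjusted p = 0.177), with a 95% interval from -0.47 to -0.01. Without Mut-/- replicate 3 it was -0.10 (adjusted p = 0.272).

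Cubilin, which has no membrane anchor of its own, was lower in all 4 mutants. Cubn was at 12.28, 12.30, 11.98 and 12.19 in Mut-/- kidneys, 12.50, 12.43, 12.46 and 12.46 in Mut+/- kidneys and 12.53, 12.53, 12.57 and 12.57 in Mut+/+ kidneys. No mutant reached the lowest heterozygote or wild-type array. Cubn fell 1.28-fold against Mut+/+ (log2 fold change -0.36, SE 0.06, adjusted p = 0.00401). It was still called without Mut-/- replicate 3, at a log2 fold change of -0.29 (adjusted p = 0.00309), and under each of the 22 alternative settings.

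Amnionless, the small membrane protein that anchors cubilin and carries it to the cell surface, did not follow it. Amn was at 9.51, 9.40, 9.30 and 9.46 in Mut-/- kidneys, 9.27, 9.17, 9.33 and 9.32 in Mut+/- kidneys and 9.27, 9.30, 9.36 and 9.34 in Mut+/+ kidneys. Of the mutants, 3 lay above every control array, while replicate 3 lay within the range of the controls. The log2 fold change against Mut+/+ was 0.10 (SE 0.06, adjusted p = 0.307), with a 95% interval from -0.02 to 0.22. On each array the signal of Cubn minus that of Amn was taken, and this difference averaged 2.77 ± 0.09 in Mut-/- kidneys and 3.23 ± 0.02 in Mut+/+ kidneys (SD, n = 4 each), without overlap. The exact two-sided permutation p was 0.0286, the lowest value possible with 4 arrays in each group, and 0.0858 after Benjamini-Hochberg adjustment over the 12 such tests made on 4 pairs of the genes and 3 comparisons. The same pair against Mut+/- also had an exact p of 0.0286 without overlap. So did Lrp2 minus Lrpap1 and Clcn5 minus Ocrl between Mut+/- and Mut+/+. None of the 12 tests passed that adjustment.

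The receptor-associated protein is a chaperone of the endoplasmic reticulum that keeps megalin from binding ligands before it reaches the surface. Its gene, Lrpap1, was at 11.84, 12.04, 11.57 and 11.97 in Mut-/- kidneys, 12.13, 12.11, 12.06 and 12.16 in Mut+/- kidneys and 12.20, 12.26, 12.25 and 12.25 in Mut+/+ kidneys. The groups did not overlap in any pairing, with the heterozygotes between the mutants and the wild type. Lrpap1 fell 1.31-fold against Mut+/+ (log2 fold change -0.39, SE 0.08, adjusted p = 0.00932), and without Mut-/- replicate 3 the log2 fold change was -0.29 (adjusted p = 0.00687).

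Dab2 encodes the clathrin adaptor that binds the cytoplasmic tail of megalin. It was at 11.84, 11.88, 11.63 and 11.79 in Mut-/- kidneys, 12.01, 11.78, 12.03 and 12.03 in Mut+/- kidneys and 12.01, 12.07, 12.05 and 12.22 in Mut+/+ kidneys. All mutants lay below all wild-type arrays, while heterozygote replicate 2 lay within the range of the mutants. Dab2 fell 1.23-fold against Mut+/+ (log2 fold change -0.30, SE 0.07, adjusted p = 0.0198). The call ended without Mut+/+ replicate 4 (adjusted p = 0.0693). A second and dimmer probe set of Dab2, with a wider spread, was not called. It averaged 8.29 ± 0.40 in Mut-/- kidneys and 8.34 ± 0.12 in Mut+/+ kidneys (SD, n = 4 each; log2 fold change -0.05, SE 0.15, adjusted p = 0.888 over the 21785 probe sets with 1 gene), and the difference between the probe sets was not tested.

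Clcn5 and Ocrl are the genes of Dent disease in humans, a loss of low-molecular-weight protein in the urine. ClC-5, the product of Clcn5, exchanges chloride for protons in endosomes, and OCRL is a phosphatase of inositol lipids on the same compartments. Clcn5 was at 9.85, 9.80, 9.71 and 9.62 in Mut-/- kidneys, 9.84, 9.79, 9.89 and 9.86 in Mut+/- kidneys and 9.88, 10.04, 9.96 and 10.13 in Mut+/+ kidneys. The mutants lay just below the wild-type arrays, and the heterozygotes overlapped both. Clcn5 fell 1.19-fold against Mut+/+ (log2 fold change -0.26, SE 0.06, adjusted p = 0.0222), a call that ended without Mut-/- replicate 4, Mut+/+ replicate 2 or Mut+/+ replicate 4 (adjusted p up to 0.0752). Ocrl was at 8.43, 8.43, 8.53 and 8.52 in Mut-/- kidneys, 8.59, 8.44, 8.58 and 8.54 in Mut+/- kidneys and 8.51, 8.62, 8.58 and 8.70 in Mut+/+ kidneys. Its groups overlapped, and the log2 fold change of -0.12 (SE 0.05, adjusted p = 0.178, 95% interval from -0.24 to -0.01) did not pass the test.

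Ctns encodes cystinosin, the exporter of cystine from lysosomes, whose loss in humans gives cystinosis with a failure of proximal tubule transport. It was at 8.65, 8.52, 8.38 and 8.41 in Mut-/- kidneys, 8.47, 8.58, 8.69 and 8.61 in Mut+/- kidneys and 8.71, 8.90, 8.94 and 9.003 in Mut+/+ kidneys. Both the mutants and the heterozygotes lay below every wild-type array, and they overlapped each other. Ctns fell 1.32-fold in Mut-/- against Mut+/+ (log2 fold change -0.40, SE 0.08, adjusted p = 0.00595) and was still called without any single array. With the heterozygotes counted as controls, so that 4 mutants stood against 8 other mice, its log2 fold change was -0.25 and it was not called (adjusted p = 0.133).

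Against the heterozygotes 1 of the 8 genes was called. Cubn fell 1.21-fold in Mut-/- against Mut+/- (log2 fold change -0.27, SE 0.06, adjusted p = 0.0385). Of all genes 2.54% were called in this comparison, 1.46% lower and 1.07% higher. The call was lost on leaving out Mut-/- replicate 4 or any heterozygote or wild-type array (highest adjusted p = 0.11). Of 12 markers of the S3 segment, the last part of the proximal tubule, 3 fell in this comparison as well, and their part in the fall of Cubn was not tested. Lrpap1 had a log2 fold change of -0.26 (adjusted p = 0.118) and, like Cubn, no overlap between the groups, which held for 5.65% of all genes on the lower side and 4.04% on the higher side. Lrp2 had a log2 fold change of -0.25 (adjusted p = 0.265) and Dab2 one of -0.18 (adjusted p = 0.249), while those of Clcn5, Ctns and Ocrl lay between -0.10 and -0.06. Amn was again on the other side, at 0.15 (adjusted p = 0.205). For the 8 genes the median was -0.14, beside -0.01 over all genes.

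Between Mut+/- and Mut+/+ kidneys limma called none of the 8 genes. Of all genes 0.135% were called, 27 in number, with 0.0702% lower and 0.0652% higher. Ctns and Clcn5 had an unadjusted p under 0.05, 0.0015 and 0.0282. Ctns had the largest difference, a log2 fold change of -0.30 (SE 0.08, adjusted p = 0.158), with a 95% interval from -0.47 to -0.14. Clcn5 had a log2 fold change of -0.16 (adjusted p = 0.373). Cubn, Lrpap1 and Ctns did not overlap between the groups, all of them lower in heterozygotes, a pattern that 5.26% of all genes showed, beside 3.18% higher in heterozygotes without overlap. Lrp2 differed by 0.01, with a 95% interval from -0.22 to 0.23. The group means ran from lowest in Mut-/- over Mut+/- to highest in Mut+/+ for 6 of the 8 genes, all but Lrp2 and Amn. The 3 comparisons share their groups in pairs and are not independent of each other.

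**Figure D2:**
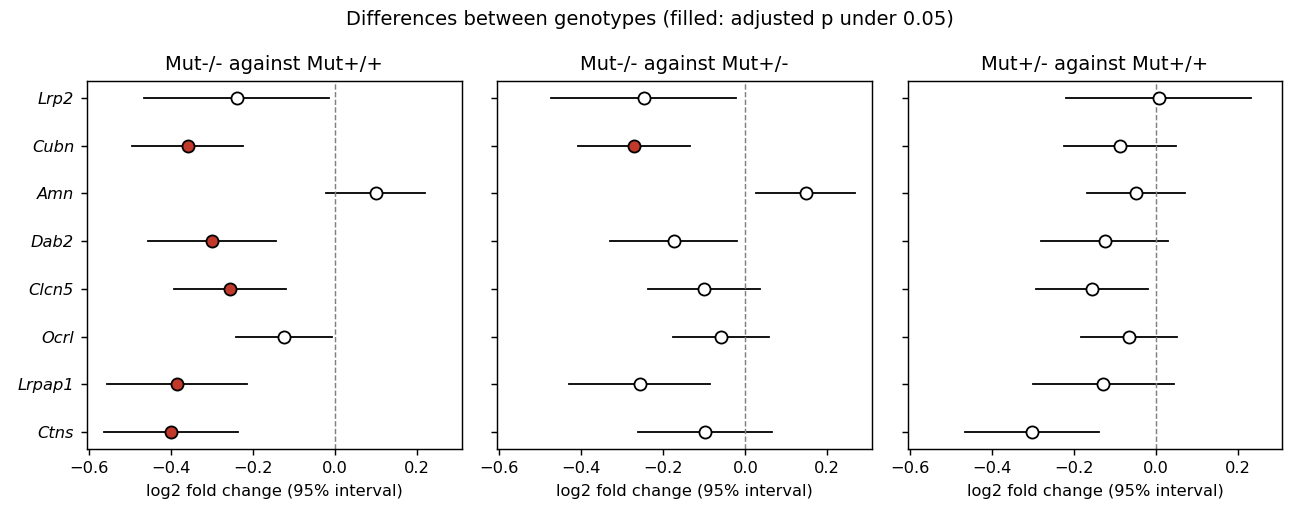
Log2 fold changes (x axis) of the 8 genes (y axis) in the 3 comparisons of genotypes, with 95% intervals from the fit of all 12 arrays. Filled points passed the adjusted p of 0.05: 5 genes in Mut-/- against Mut+/+, Cubn in Mut-/- against Mut+/-, and none in Mut+/- against Mut+/+.

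Within the mutants, 1 array was low for most of the 8 genes. Mut-/- replicate 3 was the lowest mutant for Lrp2, Cubn, Amn, Dab2, Lrpap1 and Ctns and the highest for Ocrl. The mean over the 8 genes was 10.42 on that array, against 10.59 to 10.66 on the other 3 mutants, 10.65 to 10.74 in Mut+/- kidneys and 10.76 to 10.89 in Mut+/+ kidneys. The other 3 mutants were thus also below every wild-type array. Without Mut-/- replicate 3 the same count of 5 of the 8 genes was called lower against Mut+/+, with a median log2 fold change of -0.25, while 5.27% of all genes were. Across the 12 arrays the Pearson correlation of Cubn and Lrpap1 was 0.951, and 0.888 without Mut-/- replicate 3, and that of Clcn5 and Ctns was 0.929, and 0.918 without it. Amn correlated between -0.325 and -0.039 with the other 7 genes, but without Mut-/- replicate 3 it stood at -0.775 with Lrp2, -0.634 with Cubn and -0.628 with Lrpap1. These arrays share their genotypes, so the correlations describe the differences between groups as well as those between mice, and they are given without a test.

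**Figure D3:**
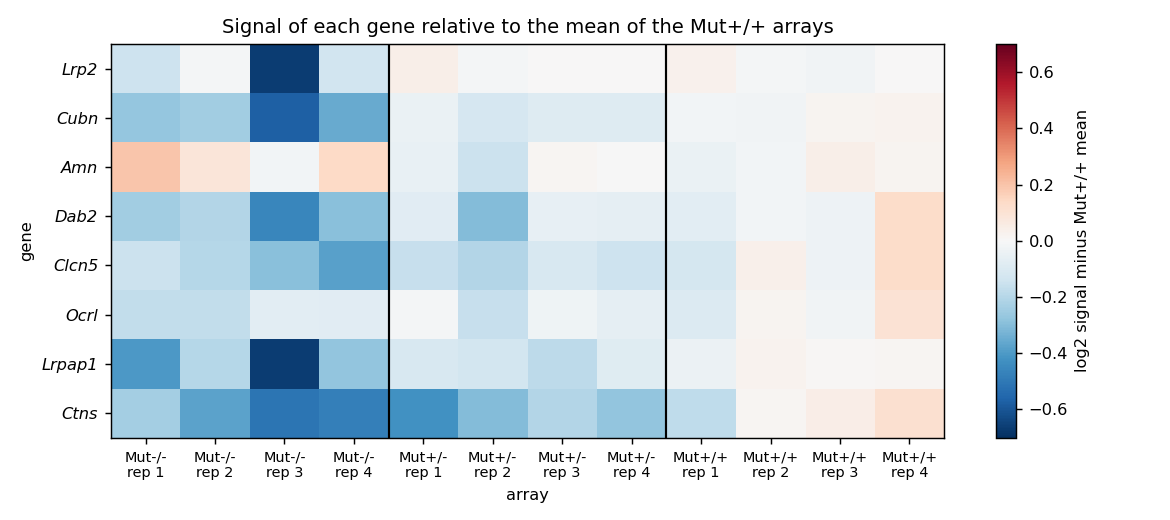
Log2 signal of each gene (rows) on each array (columns) minus the mean of that gene over the 4 Mut+/+ arrays, blue where lower and red where higher. Mut-/- replicate 3 holds the deepest values for Lrp2, Cubn and Lrpap1, Amn stands above the wild-type mean in 3 of 4 mutants, and Ctns is low in the heterozygotes too.

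Among 14785 other named genes with a mean of at least 6, those most like Cubn over the 12 arrays were Slc39a8, a zinc and manganese transporter gene, Abitram, Pdk3, a pyruvate dehydrogenase kinase gene, Oxct1, of ketone body use, and Ppic, a cyclophilin gene. Their Pearson correlations lay between 0.970 and 0.975, and between 0.939 and 0.959 without Mut-/- replicate 3. The genes most like Lrp2 were the transporter genes Slc7a12 and Slc22a19, Sap30, Paqr9 and the aminoadipate aminotransferase gene Aadat. Their correlations of 0.968 to 0.984 came down to between 0.695 and 0.84 without Mut-/- replicate 3. Slc7a12 and Aadat are also on the list of markers of the S3 segment.

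The promoters of Cubn, Lrpap1 and Ctns, which had the largest falls against Mut+/+, are shown beside those of Lrp2 and Amn, which were not called. Each is the 250 bases before the start of the gene, 5′ to 3′ on the strand of the gene, from RefSeq on build GRCm38.p6. Capitals mark the motifs found on either strand. The motifs searched were the GC box GGGCGG, the CCAAT box CCAAT, the TATA box TATAAA, the half-site of the factor HNF1, GTTAAT, a site of the factor HNF4, CAAAGTCCA, and the E-box CACGTG, core of the element of lysosomal genes. None of the motifs found overlapped in these windows.
Lrp2, chr2:69586030-69586279, minus strand: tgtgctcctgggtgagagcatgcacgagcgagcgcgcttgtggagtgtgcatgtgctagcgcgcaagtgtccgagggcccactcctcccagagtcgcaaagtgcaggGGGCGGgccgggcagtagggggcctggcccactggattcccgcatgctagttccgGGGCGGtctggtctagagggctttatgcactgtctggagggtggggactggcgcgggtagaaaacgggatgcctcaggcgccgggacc
Cubn, chr2:13491877-13492126, minus strand: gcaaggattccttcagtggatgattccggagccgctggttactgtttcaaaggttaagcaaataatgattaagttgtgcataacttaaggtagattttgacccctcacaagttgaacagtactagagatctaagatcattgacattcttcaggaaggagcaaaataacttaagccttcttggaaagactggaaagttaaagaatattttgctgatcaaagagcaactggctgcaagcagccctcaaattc
Amn, chr12:111270846-111271095, plus strand: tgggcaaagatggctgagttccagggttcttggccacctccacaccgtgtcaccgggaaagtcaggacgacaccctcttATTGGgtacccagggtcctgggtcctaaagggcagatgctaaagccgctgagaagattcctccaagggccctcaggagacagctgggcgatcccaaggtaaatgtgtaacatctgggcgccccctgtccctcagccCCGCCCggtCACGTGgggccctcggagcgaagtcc
Lrpap1, chr5:35105700-35105949, minus strand: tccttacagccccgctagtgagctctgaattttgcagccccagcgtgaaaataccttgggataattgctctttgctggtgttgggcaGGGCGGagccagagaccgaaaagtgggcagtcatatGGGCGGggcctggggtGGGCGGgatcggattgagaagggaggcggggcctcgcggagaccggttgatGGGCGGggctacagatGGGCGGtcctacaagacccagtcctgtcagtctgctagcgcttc
Ctns, chr11:73199020-73199269, minus strand: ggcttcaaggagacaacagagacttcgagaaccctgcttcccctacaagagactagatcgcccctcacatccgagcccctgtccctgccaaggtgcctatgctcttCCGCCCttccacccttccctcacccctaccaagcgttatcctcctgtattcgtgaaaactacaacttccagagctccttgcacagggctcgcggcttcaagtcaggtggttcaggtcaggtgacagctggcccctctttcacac
Cubn held none of the motifs, and its window had 39.6% G and C, against 66.4% for Lrp2, 61.2% for Amn, 60.8% for Lrpap1 and 56.8% for Ctns. A GC box was found in 7 of the 11 windows of the 8 genes, 3 of which have several starts in RefSeq, and in 32.74% of all 32851 windows of this length. The windows of Ctns overlap and hold the same GC box, which is counted in both. The E-box was found in the window of Amn alone among the 8 genes, and in 6.02% of all windows. The HNF1 half-site was found in 1 window of Dab2 and in 6.43% of all windows, and the HNF4 site in none of the 11, with 0.38% of all windows holding it. These are matches of letters and not measured binding. The 8 genes lie on chromosomes 2, 5, 11, 12, 15 and X, and none on chromosome 17, which holds Mmut.

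The other genes of the endocytic pathway were read from lists. Among 31 measured genes of the clathrin coat, its adaptors and endosome sorting, 2 fell in Mut-/- against Mut+/+ and none rose, with a median log2 fold change of -0.05. With 6.69% of all genes called lower, that count is near the share over all genes. Rab5a, a GTPase of early endosomes, was at 9.09, 9.32, 9.12 and 9.33 in Mut-/- kidneys and at 9.54, 9.52, 9.48 and 9.67 in Mut+/+ kidneys, without overlap. It fell 1.26-fold (log2 fold change -0.34, SE 0.07, adjusted p = 0.00662). Rab11a, a GTPase of the recycling endosomes that return receptors to the surface, fell 1.2-fold (adjusted p = 0.014).

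Genes of endosome acidification fell in 7 of 23 measured cases and rose in none, with a median log2 fold change of -0.15. Over all genes 6.69% were called lower and 2.96% higher. The largest fall was that of Slc9a8, a sodium-proton exchanger gene, at 9.33, 9.61, 8.90 and 9.24 in Mut-/- kidneys against 10.59, 10.49, 10.41 and 10.41 in Mut+/+ kidneys. The groups lay far apart, and the fall was 2.31-fold (log2 fold change -1.20, SE 0.12, adjusted p = 0.000137). Of the proton pump, Atp6v0b fell 1.24-fold (adjusted p = 0.00853), Atp6ap2 1.23-fold (adjusted p = 0.0235) and Atp6v1a 1.19-fold (adjusted p = 0.00908). Atp6ap2 was no longer called without Mut-/- replicate 1, Mut-/- replicate 2 or Mut+/+ replicate 2 (highest adjusted p = 0.0649). Without Mut-/- replicate 3, 5 genes of the list fell, beside 5.27% of all genes. Some of these pump subunits are shared with intercalated cells, whose 8 measured markers had 1 gene risen and 2 fallen, or 2 risen and 1 fallen without Mut-/- replicate 3, and the part of those cells was not tested.

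Of 28 measured lysosome genes 2 fell and none rose, again near the 6.69% of all genes called lower, with a median log2 fold change of -0.06. Gaa, which encodes the acid glucosidase that breaks down glycogen, fell 1.23-fold (adjusted p = 0.00932), and the peptidase gene Tpp1 1.15-fold (adjusted p = 0.0123). Without Mut-/- replicate 3 a further gene of the list rose.

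Other endocytic receptors and proteins of the brush border fell in 3 and rose in 1 of 16 measured cases (median log2 fold change -0.08). Over all genes 6.69% were called lower and 2.96% higher. The fatty acid and scavenger receptor gene Cd36 fell 1.55-fold (adjusted p = 0.00333). Cltrn, which encodes collectrin, a partner of amino acid transporters on the brush border, was at 12.04, 11.97, 11.73 and 11.94 in Mut-/- kidneys against 12.40, 12.36, 12.25 and 12.41 in Mut+/+ kidneys, a fall of 1.35-fold (adjusted p = 0.00304). The sorting receptor gene Sort1 fell 1.23-fold (adjusted p = 0.015). The riser was Havcr1, which encodes kidney injury molecule 1, a receptor for dying cells, at 8.41, 8.18, 9.35 and 7.47 in Mut-/- kidneys against 6.42, 6.06, 6.60 and 6.15 in Mut+/+ kidneys. All mutants were above all wild-type arrays, and the heterozygotes split, at 6.25, 6.25, 8.86 and 8.70. Its rise of 4.13-fold against Mut+/+ (adjusted p = 0.0359) was not called on leaving out any wild-type array or Mut-/- replicate 1, 2 or 3 (highest adjusted p = 0.097).

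Transcripts of proteins that megalin and cubilin take up went both ways, with 6 fallen and 3 risen of 22 (median log2 fold change 0.03). The shares over all genes were 6.69% lower and 2.96% higher. The carriers Ttr and Alb fell 4.93-fold and 3.2-fold (adjusted p = 0.000118 and 0.000414). Lcn2, a siderophore-binding protein raised in tubular injury, rose 7.73-fold (adjusted p = 0.00272), and the lysozyme gene Lyz2 rose 2.4-fold (adjusted p = 0.0281). Lyz2 lost its call on leaving out Mut-/- replicate 2 or 4 or Mut+/+ replicate 2, 3 or 4 (highest adjusted p = 0.0847). Lcn2 was at 8.35, 11.29, 11.33 and 9.69 in Mut-/- replicates 1 to 4, against 7.30, 7.01, 7.38 and 7.16 in Mut+/+ kidneys. Lcn2 was thus high both in replicate 3, where Lrp2 was lowest, and in replicate 2, where Lrp2 was highest among mutants. Havcr1, by contrast, was highest among mutants in replicate 3, at 9.35, and was at 8.18 in replicate 2. The relation of either marker to Lrp2 was not tested. Kidney transcripts of the ligands of megalin and cubilin do not measure the filtered proteins, which come mostly from other organs. Of 11 measured factors and nuclear receptors of the proximal tubule 1 was called, the retinoic acid receptor gene Rara, 1.19-fold higher (adjusted p = 0.0221). With 9.66% of all genes called in either direction, that count is near the share over all genes. Without Mut+/+ replicate 1 or 3 Rara was not called (highest adjusted p = 0.0623).

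**Figure D4:**
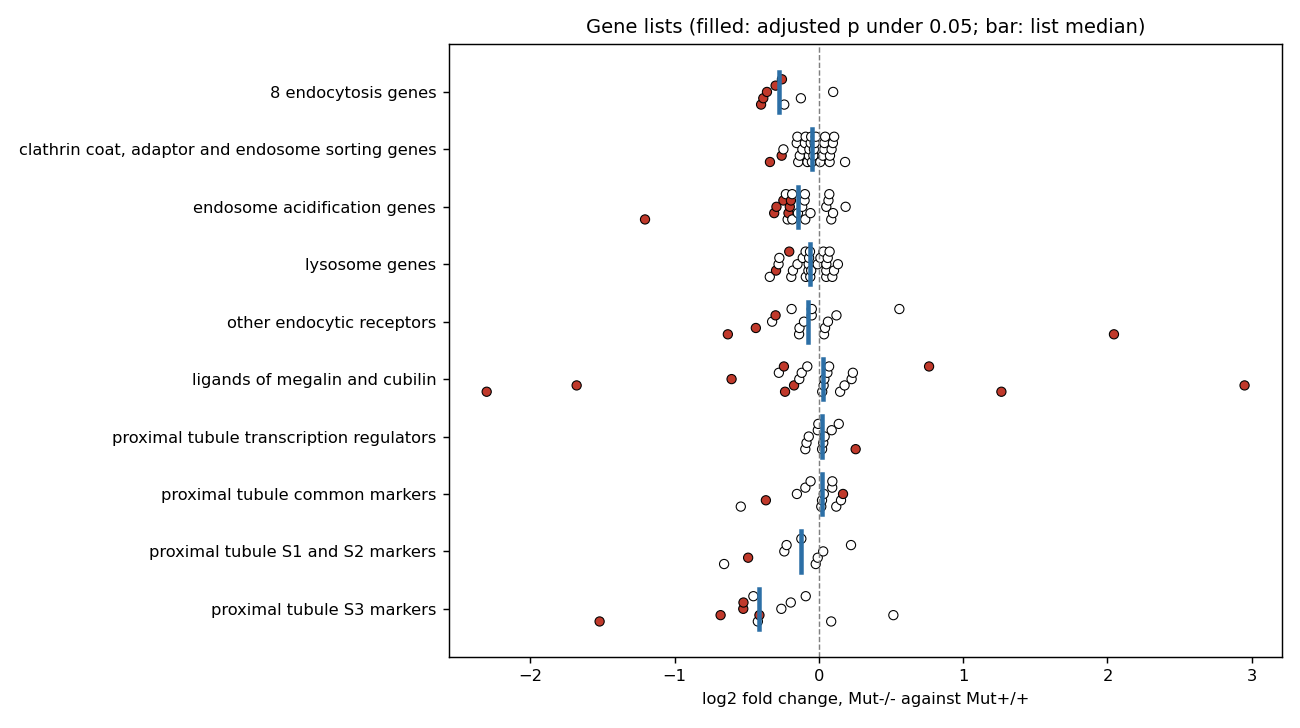
Log2 fold changes in Mut-/- against Mut+/+ (x axis) of the genes of each list (rows), where points are genes, filled points passed the adjusted p of 0.05, and blue bars are list medians. The median of the 8 endocytosis genes was -0.28, that of endosome acidification -0.15, that of the S3 markers -0.42 and that of the common proximal tubule markers 0.02.

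Against the heterozygotes 2.54% of all genes were called, 1.46% lower and 1.07% higher. In the same lists 2 of 31 clathrin coat, adaptor and sorting genes fell and none rose. Of 23 acidification genes 1 fell and 2 rose. Other receptors fell in 2 of 16 cases, and ligands fell in 2 and rose in 1 of 22. None of the 28 lysosome genes or the 11 transcription regulators was called. Slc9a8 fell 2.41-fold in Mut-/- against Mut+/- (adjusted p = 0.000315), Cd36 1.46-fold (adjusted p = 0.0185) and Cltrn 1.29-fold (adjusted p = 0.0197). Cd36 was not called without Mut+/- replicate 1 or 4 (highest adjusted p = 0.0618), nor Cltrn without Mut+/- replicate 1, 3 or 4 (highest adjusted p = 0.0688). Ttr and Alb fell 3.2-fold and 3.21-fold (adjusted p = 0.00243 and 0.00121). Lcn2 rose 4.61-fold (adjusted p = 0.031), a call lost without Mut-/- replicate 2 or 3, Mut+/+ replicate 2 or any heterozygote (highest adjusted p = 0.0819). Singled out after their values were seen were Rab38, a GTPase gene of lysosome-related organelles, and Lrrk2, a kinase gene, which fell 1.25-fold and 1.24-fold (adjusted p = 0.0429 and 0.0249), and the pump subunit genes Atp6v0a4 and Atp6v1g1, which rose 1.2-fold and 1.16-fold (adjusted p = 0.0485 and 0.0364). Each of these 4 calls was lost on leaving out any heterozygote array. Rab38 also lost it without any other array but Mut-/- replicate 1 (highest adjusted p = 0.125), Atp6v0a4 without any other but Mut-/- replicate 2 or 4 (highest adjusted p = 0.121), and Atp6v1g1 without Mut-/- replicate 1 or 4 or Mut+/+ replicate 4 (highest adjusted p = 0.0956). No gene of these lists was called between Mut+/- and Mut+/+, where 0.135% of all genes were.

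Markers of the proximal tubule moved unevenly beside the endocytosis genes. Over all genes 6.69% were called lower and 2.96% higher, and 5.27% and 2.52% without Mut-/- replicate 3. The counts of the common list and of the S1 and S2 list were near those shares. Of the 13 common markers 1 fell, the gluconeogenic gene Fbp1 by 1.29-fold (adjusted p = 0.0135), and 1 rose, Ttc36, 1.12-fold (adjusted p = 0.0203). Fbp1 was not called without Mut+/+ replicate 4 (adjusted p = 0.0503), nor Ttc36 without Mut+/+ replicate 3 (adjusted p = 0.0552). Their mean level ranged from 12.27 to 12.57 in Mut-/- kidneys and from 12.48 to 12.52 in Mut+/+ kidneys, and from 12.50 to 12.57 in mutants without replicate 3. Of 9 markers of the S1 and S2 segments 1 fell, Slc7a8, an amino acid transporter gene, 1.4-fold lower (adjusted p = 0.0384). It was not called without any of 8 single arrays, Mut-/- replicate 3 among them (highest adjusted p = 0.114), and without that replicate no marker of the list was. Of 12 S3 markers 5 fell and none rose, led by the organic anion transporter gene Slc22a7, 2.87-fold lower (adjusted p = 0.00973), and Serpina1f, 1.6-fold lower (adjusted p = 0.0231). Serpina1f was not called without Mut-/- replicate 1 or 3 or Mut+/+ replicate 2, 3 or 4 (highest adjusted p = 0.0719). The mean of the S3 list ranged from 9.72 to 10.59 in Mut-/- kidneys and from 10.59 to 10.72 in Mut+/+ kidneys, and Mut-/- replicate 3 was the array at 9.72. Its median log2 fold change of -0.42 came to -0.23 without that array, with 5 fallen and 1 risen. The part of S3 cells, or of injury as read by Lcn2 and Havcr1, in the falls of the 8 genes was not tested.

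Other cell types were measured with shorter lists. The shares called over all genes were 6.69% lower and 2.96% higher, and 5.27% and 2.52% without Mut-/- replicate 3. In lists this short a count of 0 or 1 is near those shares. Of 7 markers of the distal convoluted and connecting tubules 5 fell, 4 without Mut-/- replicate 3, with list means from 9.28 to 10.06 in Mut-/- kidneys and from 10.31 to 10.34 in Mut+/+ kidneys. Endothelial markers fell in 3 of 9, 2 without that replicate, with means from 8.97 to 9.33 in Mut-/- kidneys and from 9.45 to 9.59 in Mut+/+ kidneys, and podocyte markers in 3 of 6, with means from 8.16 to 8.37 in Mut-/- kidneys and from 8.42 to 8.49 in Mut+/+ kidneys. Thick ascending limb markers had no called gene of 7, principal cell markers 1 risen and 1 fallen of 8, with 0 fallen without Mut-/- replicate 3, and liver cell markers 1 fallen of 8. Macrophage markers had 1 risen and 1 fallen of 8, with 0 risen without that replicate, and with means from 7.77 to 8.38 in Mut-/- kidneys and from 7.80 to 8.05 in Mut+/+ kidneys. No marker was at 0 on these arrays, where background has a level of its own, and the part of these cell types in the results above was not tested.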

How the data were processed

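RNA of whole kidneys from 12 mice was measured on Affymetrix mouse gene arrays. Groups and replicate numbers were read from the sample titles. The deposited values are log2 signals per probe set, which the authors made by RMA with Expression Console 1.2.1, according to the submitters' processing notes. RMA brings the signals of single probes, before they are joined into probe sets, to the same distribution on all arrays. It compresses differences of very dim and very bright probe sets. All 35552 probe sets were present on all arrays, with 0 missing values.

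The platform annotation gave 1 gene symbol to 21785 probe sets, and the others were left out. The probe set with the highest mean stood for each of 19934 genes, and of the 8 genes described only Dab2 had more than 1.

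A single limma model (version 3.58.1, lmFit and eBayes, in R 4.3.3) covered the 12 arrays, with 9 degrees of freedom from the arrays, 4.408 from the prior, and Benjamini-Hochberg adjustment over all genes of a comparison. The code was tested on simulated data. The p-values set the differences between groups against the spread between these mice, and precision is limited by there being 4 per group. The 8 genes, the 6 pathway lists and the 11 marker lists were chosen with earlier results of these data known. Named from each pathway list were up to 4 called genes with the largest change in Mut-/- against Mut+/+, and from each proximal tubule marker list up to 2. Lcn2 and Havcr1 were named in any case. List members without a probe set of their own were not analysed here.

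The labels used here give no batch and no order in which the arrays were run, so effects of either could not be checked. Alternatives were leaving out each array, blocking on the replicate number, a filter on dim genes, other uses of probe sets, array weights, another variance prior, a fit of only the groups compared, median centring, quantile normalisation, pooled controls and a threshold of 0.1. List counts without Mut-/- replicate 3 were added after seeing the data.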

Additional observations from a re-analysis of the deposited data

Results flagged for a closer look

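Of the 24 sets of 4 arrays, 8 genes in 3 genotypes, 1 held an array far from the rest. Dab2 was at 11.78 in Mut+/- replicate 2, while the nearest other heterozygote was at 12.01. Chance alone gives such an array in about 1 of 20 sets.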

How the results depend on the processing

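Over the alternatives, the log2 fold changes of the 8 genes kept their direction in both comparisons with Mut-/-. Between Mut+/- and Mut+/+, Lrp2, at 0.01 with all arrays and never called, was at -0.007 after median centring and between -0.004 and 0.0178 without single arrays. Against Mut+/+, 5 genes were called with all arrays and between 3 and 5 without single arrays, with 3 left without Mut+/+ replicate 4, where Dab2 and Clcn5 were lost. With pooled controls the count was 3, as Clcn5 and Ctns were not called, and the mean of its probe sets ended the call of Dab2 (log2 fold change -0.17, adjusted p = 0.34). Against Mut+/-, 1 gene was called with all arrays and between 0 and 2 without single arrays, where Lrpap1 joined Cubn without Mut-/- replicate 2 (adjusted p = 0.0483). The count there was 0 with the replicate number as a block, with only the groups compared and after median centring. Between Mut+/- and Mut+/+ it was 0 in every setting run. Over all genes, 1925 were called in Mut-/- against Mut+/+, but 1154 with only the groups compared, 1019 without Mut+/+ replicate 4 and 2978 at a threshold of 0.1. In Mut-/- against Mut+/- the 506 calls came to 191 with only the groups compared and to as few as 229 without single arrays. The 27 calls in Mut+/- against Mut+/+ ranged from 5 without Mut+/+ replicate 4 to 163 with array weights. The cause of these changes was not tested. Deviations of arrays with the same replicate number correlated between -0.239 and 0.168, and those with different numbers between -0.201 and 0.263. No pairing of the mice by number was seen, although such correlations cannot exclude one. As a block the replicate numbers left 4 of the 8 genes called against Mut+/+ and 0 between Mut+/- and Mut+/+. The number of arrays, 4 per group, limits the precision of all these values.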
